A study of Mus musculus with 12 samples.

Results

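In cKit+ bone marrow cells, 4547 stretches of chromatin carried monomethylated histone H3 lysine 4 (H3K4me1) in both wild-type libraries and in neither library of mice with mutant Phf6. Overlapping or touching peaks of the 4 deposited H3K4me1 lists were merged into 139885 regions. Those with a peak in both wild-type (WT) libraries and in neither transgenic (Tg) library are called WT-only here, and they made up 3.25% of all regions. The mirror set, Tg-only, held 2751 regions. A further 46121 regions had a peak in all 4 libraries. Members were thus chosen by the presence and absence of H3K4me1 peaks between the genotypes, so widths, ranks and numbers of WT-only regions are descriptions and were not tested.

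All cells were C57BL/6 bone marrow cells sorted for cKit, the stem cell factor receptor that marks blood stem and progenitor cells. The WT group had the genotype wild type, and the Tg group is labelled Phf6R274X Tg. Each genotype had 2 libraries for each of H3K4me1, acetylated lysine 27 (H3K27ac) and trimethylated lysine 4 (H3K4me3), 12 libraries in all. The promoter that drives the transgene, the age and sex of the mice, and whether the libraries of a group came from separate animals are not given in the sources used here. P-values below therefore measure only the spread between these libraries. The Kit gene itself held 8 H3K4me1 regions of all 4 libraries, and H3K27ac covered 5.53 and 2.40 kb there in WT and 3.11 and 2.05 kb in Tg. These values do not test the sort, since every library is of sorted cells.

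H3K4me1 is laid down by KMT2 methyltransferases at enhancers and along the flanks of promoters. Enhancers that carry it alone are usually called primed, and H3K27ac in addition marks the active ones. PHF6 is an X-linked chromatin-binding protein with zinc fingers that associates with the NuRD remodelling complex and is mutated in leukaemias. In blood progenitors, enhancers for the red cell, platelet, myeloid and lymphoid programmes are marked before the genes are fully switched on, with GATA1 and KLF1 acting at those of the red cell genes.

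Only 135 WT-only regions (2.97%) touched a promoter window, defined as 250 bases before to 50 after an annotated start. They touched 144 of 21263 such windows, at 135 genes. Their RefSeq promoters (GRCm38.p6, the assembly also called mm10) are shown for 4 genes of red cells or of the butyrophilin family, picked after their values were seen, because they let the GATA motif count be read against actual sequence. Capitals mark the letters AGATAA or, on the other strand, TTATCT. Epor encodes the erythropoietin receptor, Btnl10 a butyrophilin-like protein, Tspo2 a transporter-family protein of red cell precursors and Slc25a39 a mitochondrial carrier needed for glutathione import. The windows lie at chr9:21963527-21963826 on the minus strand (Epor), chr11:58917658-58917957 on the plus strand (Btnl10), chr17:48451452-48451751 on the minus strand (Tspo2) and chr11:102407468-102407767 on the minus strand (Slc25a39).
Epor: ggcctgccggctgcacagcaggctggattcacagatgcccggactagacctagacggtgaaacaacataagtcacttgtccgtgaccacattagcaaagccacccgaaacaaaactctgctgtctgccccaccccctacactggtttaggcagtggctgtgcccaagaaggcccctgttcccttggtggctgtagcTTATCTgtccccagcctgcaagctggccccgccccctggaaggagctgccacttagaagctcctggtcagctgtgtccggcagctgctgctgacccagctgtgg
Btnl10: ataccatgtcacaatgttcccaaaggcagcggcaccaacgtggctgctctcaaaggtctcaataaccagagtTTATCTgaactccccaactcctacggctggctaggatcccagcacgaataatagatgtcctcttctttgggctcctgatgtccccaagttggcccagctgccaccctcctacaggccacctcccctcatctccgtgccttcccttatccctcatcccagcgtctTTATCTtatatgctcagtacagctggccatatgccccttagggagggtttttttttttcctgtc
Tspo2: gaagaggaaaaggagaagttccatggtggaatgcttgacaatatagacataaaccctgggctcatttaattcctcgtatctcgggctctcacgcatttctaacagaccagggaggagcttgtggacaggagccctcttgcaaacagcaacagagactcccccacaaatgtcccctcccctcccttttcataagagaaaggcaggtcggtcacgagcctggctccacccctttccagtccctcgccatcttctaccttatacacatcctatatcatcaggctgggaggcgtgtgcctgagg
Slc25a39: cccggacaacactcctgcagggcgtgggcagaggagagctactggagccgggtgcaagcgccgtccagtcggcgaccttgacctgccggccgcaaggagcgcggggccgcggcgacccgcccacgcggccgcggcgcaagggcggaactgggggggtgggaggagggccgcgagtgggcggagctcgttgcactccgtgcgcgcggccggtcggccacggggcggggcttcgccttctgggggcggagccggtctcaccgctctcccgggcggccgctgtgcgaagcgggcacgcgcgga
The Epor window has 1 match, 54 bases before the start, and the Btnl10 window has 2, at 178 and 14 bases before it, all as TTATCT. The WT-only regions cover only the first 93 printed bases at Epor and the first 66 at Btnl10. The matches, at printed positions 197 (Epor) and 73 and 237 (Btnl10), lie outside them. The Tspo2 and Slc25a39 windows have none.

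Among the 144 promoter windows touched by WT-only regions, 29 (20.1%) held AGATAA on either strand. The share was 9.65% of all 21263 promoter windows, 7.69% of those touched by regions of all 4 libraries and 11.1% of the 63 touched by Tg-only regions. CCACACCC, the letters of the KLF motif, stood in 6.94% of the touched windows and in 3.63% of all, and CCGGAAGT (ETS) in 9.03% against 5.15%. Other motifs were at or under the share of all promoters: TGTGGT (RUNX) in 14.6% against 15.0%, TTGCNNAA (CEBP) in 6.25% against 10.2%, TGANTCA (AP-1) in 2.78% against 6.99%, and GAGGAAGT (PU.1) in 0.694% against 3.13%. The GATA share depended on how the regions were chosen. With peaks of −log10 q of at least 5 it was 8.88% of 169 windows, and without Tg replicate 2 it was 8.35% of 946, close to the 8.23% and 7.85% at regions of all the libraries then used. A match is a description of these letters, not a bound site. It counted anywhere in a touched window, also outside the WT-only region, and the Arl13b window was touched over 2 bp only. Some genes, such as Snx22 and Slc7a7, gave more than 1 of the 29 windows. The share therefore describes promoter windows, not the sequence of the WT-only regions.

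Where active marks were present at those promoters, they were mostly shared by the genotypes. H3K4me3 covered part of 111 to 120 of the 144 windows in single libraries and part of 108 in all 4. For H3K27ac it was 66 to 75 windows in single libraries and 60 in all 4. Of the 17492 genes with a promoter window, 58.2% had H3K4me3 and 41.4% had H3K27ac at one in all 4 libraries. At Epor, the WT-only region (chr9:21963734-21964403, 670 bp) held H3K4me3 over 174 and 254 bp under the WT label and 338 and 327 bp under the Tg label, and no H3K27ac. At Slc25a39, both marks covered the whole 663 bp in all libraries. At Tspo2 (903 bp), H3K4me3 covered 20 and 60 bp under the WT label and 259 and 102 bp under the Tg label.

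WT-only regions were narrow and weak. Their median width was 585 bp (interquartile range 447 to 800.5), against 527 bp for Tg-only regions and 1715 bp for regions of all 4 libraries. Together they covered 3.03 Mb, and 4136 of them (91.0%) were made of a single peak from each WT library. Within its own list, the median region's strongest peak stood at percentile 35.5 by −log10 q in WT replicate 1 and 31.6 in WT replicate 2. Regions of all 4 libraries stood at 67.2 and 79.1. Both WT peaks lay in the upper 50 percentiles of their lists in 409 WT-only regions (8.99%).

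**Figure D1:**
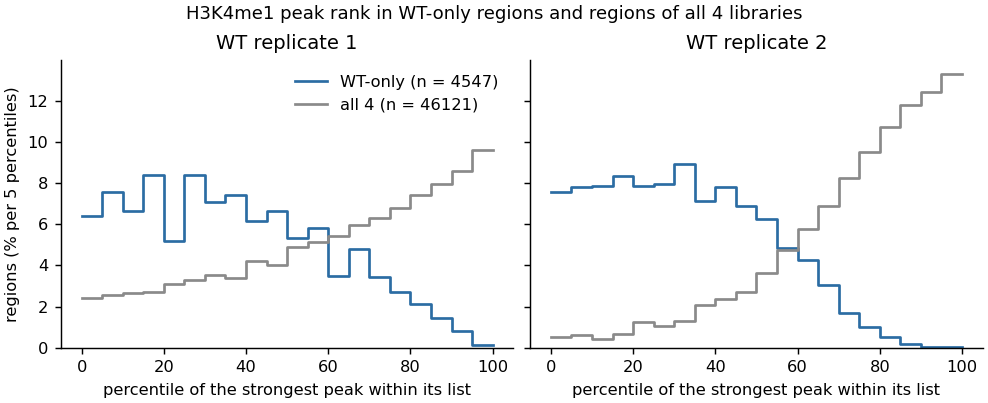
Percentile, within its own deposited list, of the strongest H3K4me1 peak of a region (horizontal axis, by −log10 q) against the percentage of regions per step of 5 percentiles, for WT replicate 1 (left) and WT replicate 2 (right). WT-only regions (blue) fill the lower percentiles with medians of 35.5 and 31.6, and regions of all 4 libraries (grey) fill the upper ones with medians of 67.2 and 79.1.

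The 10 strongest WT-only regions, ranked by the lower of the 2 WT percentiles, lay at Mast1, Tmem120b, Nckipsd, Wipf2, Map3k6, Bsg, Khsrp, Ccdc62, Pxt1 and Tcf3. The first, inside the kinase gene Mast1 (chr8:84936396-84937740), stood at percentiles 86.6 and 93.4, with deposited fold enrichments of 4.90 and 7.01, and the nearest Tg peak was 6804 bp away. The region inside Tcf3 (chr10:80421012-80424321), the gene of the E2A transcription factors of lymphoid and stem cells, was the widest of all at 3310 bp and stood at percentiles 81.1 and 77.8. The next widest lay in the glycosyltransferase gene C1galt1 (2985 bp) and in Ranbp10 (2596 bp). Of the 10 strongest, 9 had no H3K27ac in any library, and the one near Pxt1 had it in 3.

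The threshold of the rule ran through a continuum. The weakest WT-only region, in Ncan, stood at percentile 0.0015 in WT replicate 1 and 28.5 in WT replicate 2. Those of Sec24d (0.003 and 33.9) and Vasp (39.3 and 0.0284) followed. Just outside the rule, the strongest region with peaks in both WT libraries and 1 Tg library lay at the end of Ciart at percentiles 95.5 and 94.5, and its single Tg peak, in replicate 2, stood at 95.1. The next were near Prrc2b (94.1 and 97.6, with the Tg replicate 2 peak at 66.9) and in BC049352 (99.0 and 93.2, with the Tg replicate 2 peak at 63.9). The replicate 2 lists of both genotypes were the larger, with 130348 peaks over 120 Mb in WT and 121172 over 117 Mb in Tg, against 100316 over 66.3 Mb and 104781 over 70.7 Mb in the replicate 1 lists. Read depth is unknown. Absence from Tg replicate 2 was therefore the more demanding condition: without that list 13619 regions met the rule, and without Tg replicate 1 it was 5589.

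Most WT-only regions lay deep inside genes. Of them 2971 (65.3%) overlapped a protein-coding gene more than 1 kb from its ends, 500 lay within 1 kb of a gene end and 1076 (23.7%) outside. The share inside genes was 53.3% for Tg-only regions, 44.8% for regions of all 4 libraries and 51.4% for all. When Tg replicate 2 was left out it was 52.7%, against 52.2% of all regions, so little of the excess was left. It was 54.4% with peaks of −log10 q of at least 5, where all regions stood at 47.5%. H3K27ac at the host gene's promoter was about as frequent as for other H3K4me1 regions: of 2416 such regions whose host gene has a promoter window, 1716 (71.0%) had H3K27ac at that promoter in all 4 libraries, against 57.7% for Tg-only regions, 70.1% for regions of all 4 libraries and 66.2% for all H3K4me1 regions inside genes.

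**Figure D2:**
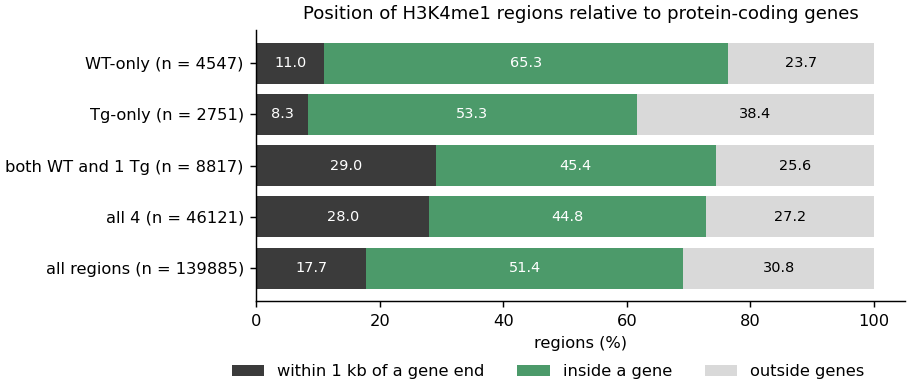
Percentage of H3K4me1 regions (horizontal axis) less than 1 kb from a gene's start or end, inside a gene or outside, for 5 sets of regions with their numbers in brackets. The inside-gene part is 65.3% of WT-only regions and between 44.8% and 53.3% in the other sets.

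WT-only regions were seldom isolated from H3K4me1 in Tg. The nearest Tg peak was at a median of 1469 bp, 1899 regions (41.8%) had one within 1 kb, and 95 (2.09%) had none within 50 kb. They also lay near each other: 1700 (37.4%) were within 10 kb of another WT-only region, against 293 (10.7%) of the Tg-only regions, which are fewer. With peaks of −log10 q of at least 5 the share was 18.3% of 2030. Chromosome X held 47 of the WT-only regions (1.03%) and 82 of the Tg-only regions (2.98%). X-linked peaks made up 0.935% and 1.67% of the WT lists and 1.26% and 1.85% of the Tg lists, and the part of that in the 2 numbers was not tested. At Phf6 itself there was no WT-only region and 1 Tg-only region, and H3K4me1 covered 0 and 0.318 kb in WT and 0.387 and 2.59 kb in Tg.

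By gene, 3201 of 21887 protein-coding genes (14.6%) had a WT-only region inside them or within 10 kb, and 2043 (9.33%) had a Tg-only region. At least 3 such regions stood at 398 genes for WT-only and 64 for Tg-only, and at least 8 stood at 14 genes and at none. Slc22a23, an orphan organic ion transporter gene, had the most, with 13 WT-only regions over its 166 kb and no Tg-only or all-library region. H3K4me1 covered 8.80 and 10.8 kb of the gene and its flanks in WT and 0 and 0.758 kb in Tg. The same gene had almost no H3K27ac: 0 and 0.411 kb in WT and none in Tg.

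The chromodomain corepressor gene Cdyl had 11 WT-only regions, with H3K4me1 over 24.5 and 34.4 kb in WT and 11.9 and 21.5 kb in Tg. H3K27ac there covered 6.41 and 4.52 kb in WT and 2.34 and 2.89 kb in Tg. Zeb2, a zinc finger repressor required for blood cell differentiation, also had 11, with 42.3 and 62.0 kb in WT against 22.4 and 38.8 kb in Tg. In both genes the larger Tg library came close to the smaller WT library. Ntn4, a secreted laminin-related netrin, had 10 WT-only regions (19.0 and 23.0 kb against 7.56 and 14.7 kb), and so had Ssh1, the cofilin phosphatase slingshot (15.5 and 22.5 kb against 7.15 and 10.9 kb). At Ssh1, H3K27ac went the other way than at Cdyl, over 2.40 and 2.14 kb in WT and 3.58 and 3.66 kb in Tg. At Zeb2 it covered less in both Tg libraries than in either WT library, before any scaling for list size. The normalized limma difference near the ends of Zeb2, Tg minus WT, had the other sign (log2 difference 0.25, adjusted p = 0.516). At Ntn4 the H3K27ac lengths of the groups overlapped (3.86 and 3.38 kb in WT, 2.32 and 3.45 kb in Tg). Neither Cdyl nor Ssh1 passed the limma test of H3K27ac near genes (adjusted p = 0.121 and 0.190). The 9 genes with 8 regions each were Cyth3, Dennd1a, Dpf3, Foxn3, Mboat2, Mindy4, Pou2f1, Sppl3 and Ssbp3.

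**Figure D3:**
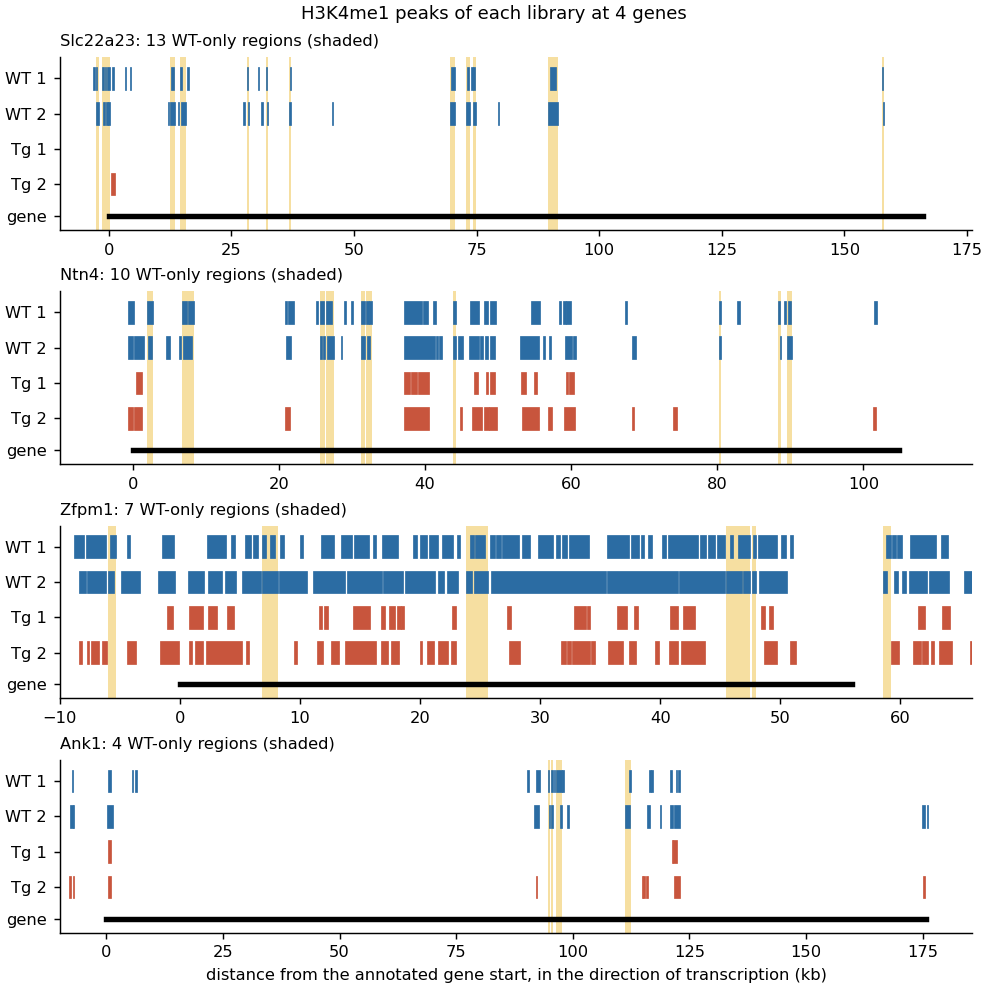
H3K4me1 peaks of the 4 libraries (blue WT, red Tg, one row per library) along Slc22a23, Ntn4, Zfpm1 and Ank1, by distance in kb from the annotated gene start in the direction of transcription, with WT-only regions shaded and the gene as a black bar. Slc22a23 has 13 WT-only regions and a single Tg peak, whereas in Zfpm1 the 7 WT-only regions fill gaps between Tg peaks.

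Red cell genes carried many WT-only regions, and their median length (16.7 kb) was near that of all genes (17.2 kb). Of 47 matched genes in 3 erythroid lists, 26 (55.3%) had one inside or within 10 kb, and 4 had a Tg-only region; the shares of all genes are 14.6% and 9.33%. The 26 genes had 55 distinct regions between them. Per 100 regions of all 4 libraries there were 31.2 WT-only regions at these genes, 10.1 at the genes of the other 13 lists and 10.4 at all genes. The 3 lists differed on that scale, with 71.9 at membrane and surface genes, 38.5 at globin and haem genes and 16.2 at the regulators. The erythroid share stood above the share of all genes under each alternative choice of regions. It was 19 of 47 genes with peaks of −log10 q of at least 5, where 8.93% of all genes qualified, and 37 of 47 without Tg replicate 2, where 38.2% did.

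H3K4me1 summed over the erythroid genes covered 415 and 599 kb in WT and 314 and 466 kb in Tg. As a percentage of the length over all genes this was 0.565 and 0.467 in WT and 0.422 and 0.381 in Tg, and these values include the regions that the rule chose, so their order is a description only. The same holds for each H3K4me1 length given by gene. Fewer erythroid cells among the sorted cells and less H3K4me1 per cell cannot be told apart in bulk libraries. H3K27ac over the same genes covered 165 and 140 kb in WT and 119 and 144 kb in Tg. These lengths overlap but are not scaled to the length over all genes. Over all genes H3K27ac covered less in Tg (34452 and 41188 kb) than in WT (53218 and 43708 kb). The overlap therefore does not show that the erythroid part of H3K27ac was level.

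Among the erythroid regulators, 7 of 15 genes had a WT-only region. Zfpm1, which encodes the GATA1 cofactor FOG1, had 7, with H3K4me1 over 39.4 and 55.8 kb in WT and 12.9 and 28.4 kb in Tg. H3K27ac at Zfpm1 covered 1.68 and 2.03 kb in WT and 1.22 and 2.13 kb in Tg. The strongest of its regions was chr8:122327361-122329351, 1991 bp wide, at percentiles 58.1 and 64.5. Cbfa2t3, the corepressor ETO2 of the same complexes, had 4 WT-only regions, and Foxo3 had 2. Klf1, Gfi1b, Epor and Bcl2l1 had 1 each. Gata1 and Tal1 had none.

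The membrane and surface list had 10 of 15 genes with a WT-only region. Epb41, encoding band 4.1 of the red cell skeleton, had 6, and Ank1 (ankyrin 1) and Sptb (beta spectrin) had 4 each. At Ank1, H3K4me1 covered 7.67 and 9.41 kb in WT and 1.65 and 4.14 kb in Tg, and all 4 regions lay inside the gene, between chr8:23038122 and chr8:23055871. Sptb also had 3 Tg-only regions, and its covered length was 9.39 and 16.8 kb in WT and 8.72 and 11.9 kb in Tg, which overlap. Aqp1, the water channel of red cells, had 3, with 3.19 and 7.61 kb in WT and 0 and 1.502 kb in Tg. Rhag, Rhd, Epb42, Icam4 and Ermap had 1 each.

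Of 17 globin and haem genes, 9 had a WT-only region. Hbb-y, the embryonic beta-like globin gene, had 3 within 10 kb (H3K4me1 over 4.17 and 3.09 kb in WT and 0.492 and 1.47 kb in Tg), and the adult beta globin gene Hbb-bt had 2 (2.71 and 4.90 kb against 0 and 1.38 kb). The regions near Hbb-bt were chr7:103807558-103808594 and chr7:103808886-103810161, both outside genes and without H3K27ac in any library. One region lay within 10 kb of each of the alpha globin genes Hba-a1 and Hba-a2, near-identical copies between which reads can be split. In the haem pathway, Cpox had 4 WT-only regions, Uros 2, and Urod, Fech and the transporter Abcb10 1 each. At Fech, the enzyme that inserts iron into haem, H3K4me1 covered 3.43 and 6.64 kb in WT and 0.637 and 1.91 kb in Tg.

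Lists of chromatin and signalling genes also held WT-only regions at a larger share of genes than the 14.6% of all genes. A region anywhere inside a gene counted, and the shares were not adjusted for gene length. Median lengths were 42.4 kb (H3K4 enzymes), 28.3 kb (NuRD), 25.8 kb (JAK-STAT) and 9.90 kb (cell cycle and p53), against 17.2 kb for all genes. Per 100 regions of all 4 libraries there were 22.4 WT-only regions at the NuRD list, 15.97 at the JAK-STAT list, 15.4 at the H3K4 enzyme list and 8.40 at the cell cycle and p53 list, against 10.4 at all genes, so the last was below the background on that scale. The NuRD list had WT-only regions at 10 of 15 genes, led by Mta3 (4), Mta1 (3), Mbd2 (2) and Gatad2a (2), subunits of the complex, and Tg-only regions at 3. The list of H3K4 methyltransferases and demethylases, which also holds Kdm6a although its enzyme acts on H3K27, had them at 9 of 19 genes. Tg-only regions stood at none. There were 3 WT-only regions at Kdm6a, 2 at Kdm1a and 1 each at Kmt2a, Kmt2b, Kmt2c and Kmt2d. Kdm6a, the X-linked H3K27 demethylase, had H3K4me1 over 6.64 and 10.7 kb in WT and 1.25 and 3.55 kb in Tg. In the JAK-STAT list 11 of 19 genes had a WT-only and 3 a Tg-only region. The most stood at the kinase gene Jak1 (6) and the transcription factor genes Stat3 and Stat5a (4 each) and Stat5b (2). Stat3 and Stat5a lie side by side on chromosome 11, and some of these regions count for both. Stat5a was covered over 9.18 and 15.6 kb in WT and 7.25 and 7.74 kb in Tg. In the cell cycle and p53 list it was 7 and 2 of 19, with 4 at Trp53 (7.23 and 13.2 kb against 2.97 and 7.67 kb).

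Among markers of the other lineages the sort could hold, the stem cell (22.2%) and megakaryocyte (17.6%) lists lay above the 14.6% of all genes and the other 7 below it. WT-only regions stood at 4 of 18 stem cell genes, 3 of 17 megakaryocyte genes, 2 of 14 mast cell genes, 2 of 16 T and NK genes and 1 gene each of the myeloid progenitor (15), mature granulocyte (16), monocyte (15), B-lymphoid (15) and stroma and endothelium (14) lists. Tg-only regions stood at 22.2% of the stem cell, 21.4% of the stroma and endothelium, 20% of the monocyte and 18.8% of the T and NK genes, against 9.33% of all genes. Median gene length over the lineage lists ran from 6.92 kb (mature granulocyte) to 41.4 kb (stroma and endothelium). In the stem cell list, Runx1 and Mllt3, both needed for stem cell function, had 5 WT-only regions each. The only members in the first 4 of those single-gene lists were Cebpa, Il1b, Lyz2 and Blnk. H3K27ac over the mature granulocyte genes covered 165 and 159 kb in WT and 81.9 and 77.1 kb in Tg, with 2 of 16 genes lower in limma (0.161% of all genes). In the myeloid progenitor list 3 of 14 tested genes were higher (0.115% of all). No gene passed without WT replicate 1 or without WT replicate 2 of H3K27ac. Its part in the WT-only regions was not tested.

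**Figure D4:**
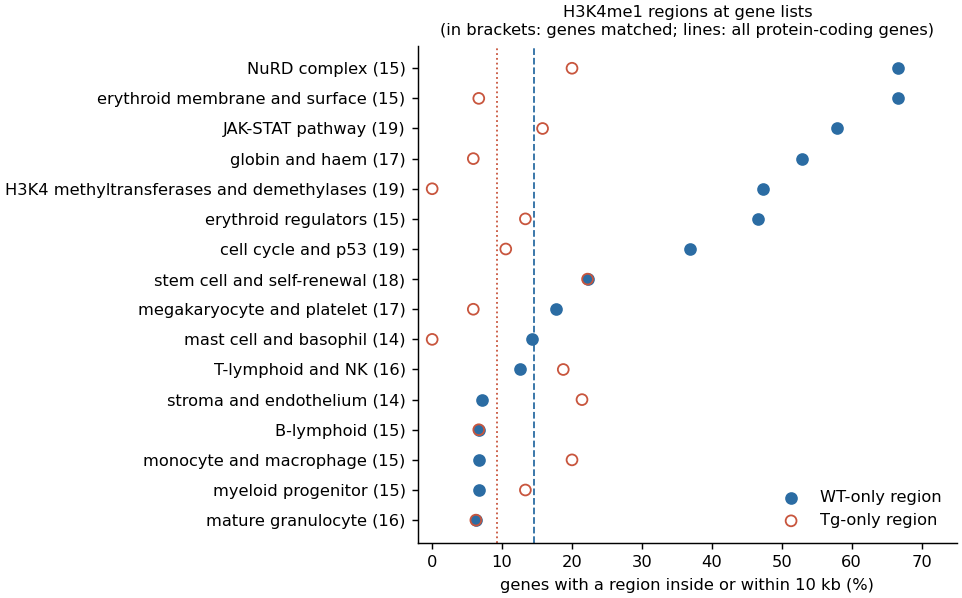
Percentage of the genes of each list (horizontal axis) with a WT-only (filled blue) or Tg-only (open red) H3K4me1 region inside the gene or within 10 kb, with the shares of all protein-coding genes as a dashed (14.6%) and a dotted (9.33%) line. The NuRD, erythroid, JAK-STAT and H3K4 enzyme lists lie at 46.7% or more for WT-only regions, and the myeloid, lymphoid and stromal lists lie at or below the dashed line. Shares are not adjusted for gene length.

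H3K27ac, which the rule did not use, was rare at WT-only regions in every library. A peak touched 7.28% and 5.85% of them in WT and 4.33% and 6.62% in Tg. The means were 6.56% ± 1.01 (SD, n = 2) and 5.48% ± 1.62 (SD, n = 2), which overlap (two-sided exact permutation test, p = 0.667, where 2 against 2 libraries cannot go below 0.333). Regions of all 4 libraries had H3K27ac in 62.5% and 52.7% in WT and 47.2% and 57.1% in Tg, and Tg-only regions in 7.12% and 4.33% in WT and 3.85% and 5.38% in Tg. Set relative to regions of all 4 libraries, the WT-only share was 11.4% ± 0.38 in WT and 10.4% ± 1.72 in Tg (SD, n = 2 each, exact permutation p = 0.667). The sign of both differences turned when Tg replicate 1, the H3K27ac list of least covered length, was left out. The relative difference, Tg minus WT, also turned under 4 other settings: to 0.091 with no Tg H3K4me1 peak within 1 kb, 7.78 when H3K27ac had to cover 50% of the region, 0.38 within 500 bp of it and 1.60 within 500 bp of its centre. When H3K4me1 Tg replicate 2 was left out of the rule, the share was 22.2% in WT and 18.1% in Tg over 13619 regions.

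**Figure D5:**
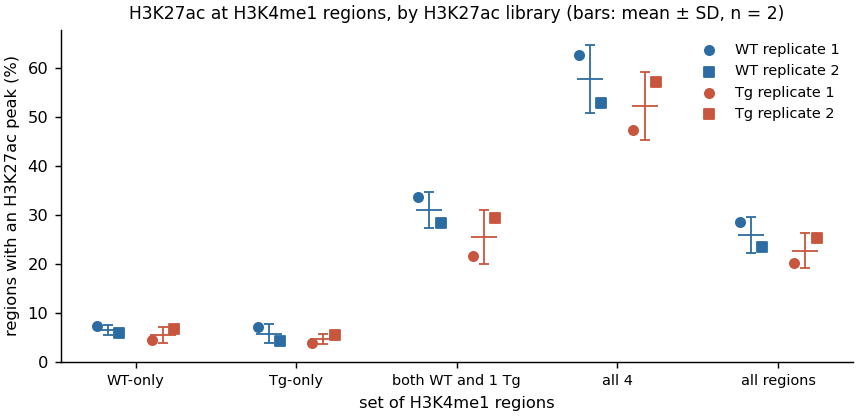
Percentage of regions touched by an H3K27ac peak (vertical axis) in each of the 4 H3K27ac libraries, for 5 sets of H3K4me1 regions, with mean and SD bars (n = 2 per genotype). WT-only regions lie between 4.33% and 7.28% in all libraries, and regions of all 4 libraries between 47.2% and 62.5%.

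H3K27ac was most frequent near gene ends. Of the 500 WT-only regions near a gene end, 35.2% and 31.0% had it in WT and 23.0% and 32.2% in Tg. Of those inside genes, 2.93% and 2.02% had it in WT and 1.41% and 2.59% in Tg. In all, 4125 regions (90.7%) had no H3K27ac in any library and 153 (3.36%) had it in all 4.

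H3K27ac of any kind was scarcer at WT-only regions, with a peak in at least 1 library at 422 of them (9.28%) and at 44907 of all H3K4me1 regions (32.1%). It was present in both WT and neither Tg library at 23 WT-only regions (0.506%), against 1.64% of all H3K4me1 regions, and in both Tg and neither WT library at 7 (0.154%), against 0.504%. Among regions with any H3K27ac, those shares were 5.45% against 5.12% and 1.66% against 1.57%, close to the background. In Vav1, the blood cell signalling adaptor, the region chr17:57280500-57281978 held H3K27ac over 345 and 499 bp in WT, with none in Tg. A region in Susd1 (309 and 314 bp) and one near Usp24 (183 and 96 bp) likewise had none in Tg, also when 500 bp on each side were added. At Ppie (103 and 224 bp) and Ddx47 (24 and 15 bp) the H3K27ac reached into the region only in WT but lay within 500 bp of it in all 4 libraries. At Ddx47 it covered, on that wider scale, 524 and 515 bp in the WT libraries and 468 and 397 bp in the Tg libraries. In the opposite order, the region in Cryzl1 (chr16:91717601-91718557) held none in WT and 176 and 302 bp in Tg, and none in WT within 500 bp either. Near Tmx1 (304 and 315 bp in Tg) and at Rwdd3 (163 and 110 bp in Tg), WT libraries had H3K27ac within 500 bp of the region, over 133 and 175 bp and over 500 and 476 bp.

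The graded test found no WT-only region past its threshold. In limma, on log2 of the H3K27ac length within 500 bp of a region plus 500 bp, 0 of 42448 regions passed an adjusted p of 0.05 (background 0%), and 436 of the 4547 WT-only regions could be tested. At an unadjusted p under 0.05 it was 33 WT-only regions (7.57%; 20 higher and 13 lower in Tg) and 6358 of all tested (15.0%). The median log2 difference, Tg minus WT, was 0.13 over the tested WT-only regions and 0.06 over all. Without normalization these medians were −0.11 and −0.17, and the 47 WT-only regions under that p split into 14 higher and 33 lower, so the direction rests on the scaling. The smallest p belonged to the region in Gemin5, with 1509 and 1177 bp in WT on that scale and 0 in Tg (log2 difference −1.63, adjusted p = 0.0737). In simulated data this test recovered none of 200 regions changed by 1 or by 2 log2 units, so a count of 0 does not show absence of change.

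Near genes, 36 of 13079 genes passed in limma (0.275%; 0.115% higher and 0.161% lower in Tg), and 3 of them were among the 2080 tested genes with a WT-only region within 10 kb of an end. Slc46a1, the proton-coupled folate transporter, rose in Tg, with H3K27ac over 238 and 0 bp in the WT libraries and over 1409 and 1486 bp in the Tg libraries (log2 difference 1.81, SE 0.15, adjusted p = 0.0444). Part of it was the WT-only region itself (chr11:78459107-78459542), which had no H3K27ac in WT and 424 and 296 bp in Tg. Ube2o, a ubiquitin ligase that remodels the proteome of maturing red cells, rose from 309 and 0 bp to 1056 and 1179 bp (log2 difference 1.49, SE 0.14, adjusted p = 0.0444). Msrb3, a methionine sulfoxide reductase, went the other way, from 1669 and 1475 bp to 0 and 310 bp (log2 difference −1.56, SE 0.14, adjusted p = 0.0444). None of the 3 calls held in the fit with the replicate number as a block (0 of these genes), and without WT replicate 1 or without WT replicate 2 of H3K27ac it was also 0. The median difference was 0.04 over genes with a WT-only region and 0.03 over all (both −0.20 without normalization), and 250 of 2080 against 1647 of 13079 (12.6%) had an unadjusted p under 0.05. Of 30 erythroid genes tested, 18 were higher and 12 lower in Tg, with a median of 0.06 and none past the threshold.

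H3K4me3 at WT-only regions was level between the groups. A peak touched 11.99% and 11.3% of them under the WT label and 11.5% and 11.7% under the Tg label (means 11.6% ± 0.482 and 11.6% ± 0.171, SD, n = 2 each, exact permutation p = 1). Within the 4 lists of this mark, each peak is named after the other genotype than the one on its GEO label, so groups are by label only. It was present in both libraries labelled WT and neither labelled Tg at 12 WT-only regions (0.264%), against 0.483% of all regions, and the reverse held at 11 (0.242%), against 0.322%. The mark was found in all 4 libraries at 439 regions (9.65%), and under the WT label it touched 55.8% and 54.0% of those near gene ends against 4.91% and 4.78% of those inside genes.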

How the data were processed

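Peak lists of 12 ChIP-seq libraries of cKit+ bone marrow cells were used, 2 per genotype and mark. Per the labels' protocols, Diagenode True MicroChIP and MicroPlex kits and single-end 75 bp reads on a NextSeq 500 were used. Per the submitters' processing notes, the authors used MACS2, Bowtie2, SAMtools, deepTools, FastQC and Trim Galore with mm10. Versions, settings and the control library are not given in the sources used here. The authors deposited for each peak a score, a fold enrichment ratio at the summit and −log10 p- and q-values. There are no read counts, so depth is unknown, and these values only ranked peaks within a list.

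H3K4me1 peaks that overlapped or touched were merged, and at least 1 bp of a peak counted as presence. Strength is the lower of the 2 WT percentiles of −log10 q. The 21887 protein-coding genes are those of RefSeq on GRCm38.p6, and starts from its promoter table (17492 genes). H3K27ac length per region or gene was tested in limma 3.58.1 (R 4.3.3) on log2(bp + 500), quantile normalized, for features with H3K27ac in at least 2 libraries, with Benjamini-Hochberg adjustment over all of them at 0.05. The regions, and the 16 gene lists (Ahsp was not matched), were chosen with earlier results of these data known. Named are the 10 strongest regions, the strongest with each H3K27ac pattern, the genes with most regions (8, extended by ties), up to 4 genes per list, and genes past limma; a few more list genes are given for completeness, and some items that the rule names are not reported here. In quantile-normalized H3K27ac length, replicate numbers did not pair the libraries (correlation of deviations −0.154 over regions and −0.199 over genes). This was not checked for H3K4me1, whose replicate 2 lists were the larger in both genotypes. Fits were tested on simulated data. Among 200 changed genes, the gene test recovered 64.5% at 2 log2 units and 0% at 1.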

Additional observations from a re-analysis of the deposited data

How the results depend on the processing

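The number of WT-only regions was 2030 with peaks of −log10 q of at least 5, 2648 with no Tg peak within 1 kb, 2975 when peaks within 500 bp were merged, and 5589 to 26075 with 1 H3K4me1 library left out, where a genotype needs only 1 library by construction. The share inside genes was then 54.4%, 66.9%, 63.5% and 52.7% to 66.7%. The median width was 830 bp for the first, 828 bp when merged and 322 to 664 bp with a library left out. The median lower percentile was 54.5 for the first and 20.9 to 27.7 with a library left out. Erythroid genes with a WT-only region numbered 27 to 41 with a library left out. The share with H3K27ac in WT and not Tg was 1.13% with the q threshold and 0.396% to 1.81% with a library left out, and the reverse was 0.345% and 0.104% to 1.23%.

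The Tg minus WT difference in H3K27ac share was −4.13 to 0.055 points with a library left out, positive only without H3K27ac Tg replicate 1. Relative to regions of all 4 libraries it was −3.74 to 0.23 with a library left out, again positive only there, and turned to 0.091 with no Tg peak within 1 kb, 7.78 when H3K27ac had to cover 50% of the region, 0.38 within 500 bp of it, and 1.60 within 500 bp of its centre. The cause was not tested.

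Of genes with a WT-only region, 0 passed limma with the replicate block, a crossed replicate block (added, with the centre window and the erythroid, clustering and GATA checks, after the data were seen), scaling to equal covered length, no normalization, a pseudocount of 100 bp or no filter, and 0 to 10 with a library left out. Over all genes it was 6 with the block, 10 with the crossed block, 6 scaled, 1 without normalization, 0 and 62 with pseudocounts of 100 and 1000 bp, 1 without the filter and 0 to 117 with a library left out. No alternative gave a region past the threshold. Depth limits what absence from a Tg list means.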
